A study of Mus musculus with 8 samples.

Results

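The nuclei described here are dopamine nuclei of the adult mouse midbrain with high counts of the 5 genes Cgnl1, Etv1, Shisa6, Atp8b1 and 1700011I03Rik. They were chosen from a table of 5740 nuclei in steps that used only the counts. Nuclei with at least 5000 UMIs (unique tags, each standing for 1 captured RNA molecule) and at least 5 UMIs per 10000 of Th, Slc6a3, Slc18a2 and Ddc together were kept, and these are called gated nuclei. Each gated nucleus was given a score, the mean over the 5 genes of its standardised log count per 10000, and the top 5% by score were taken as members. The rule gave 202 members among 4045 gated nuclei, 115 from the mutant library and 87 from the wt library. The other gated nuclei numbered 2670 in the mutant and 1173 in the wt library.

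Nuclei came from sorted midbrain of 8-month-old mice of the strain DatCreEed, profiled by single-nucleus RNA sequencing with 3' tags. The labels give the genotypes PRC2 mutant and wt, and each library pools 2 females and 1 male. The strain name joins a Cre driver of the dopamine transporter gene with Eed, a core subunit of the Polycomb repressive complex 2 (PRC2), so recombination is limited to cells in which that driver is or was active; whether the wt mice carry the Cre is not given in the labels. The 8 samples are 4 flow cell lanes of each library, which makes 1 library per genotype: no test between genotypes was possible, and genotype, pool and library preparation cannot be told apart. All intervals are 95% intervals that cover counting error only, and levels are UMIs summed over the nuclei of a group given as counts per 1000000 UMIs of that group (CPM).

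Midbrain dopamine neurons share the machinery for making, storing and taking up dopamine, and are divided into subtypes that differ in position, targets and marker genes. Neurons of the ventral substantia nigra are known for Sox6 and Aldh1a1, and many neurons of the ventral tegmental area and dorsal nigra for Calb1. PRC2 methylates lysine 27 of histone H3 and keeps genes of other lineages and of the embryo silent, and Eed is needed for that activity.

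The 5 genes of the score have different roles. Cgnl1 encodes a cingulin-like protein of cell junctions, and Etv1 a transcription factor of the ETS family. Shisa6 encodes an auxiliary protein of AMPA-type glutamate receptors, and Atp8b1 a phospholipid flippase. No role is given for 1700011I03Rik. Pde11a, which was not in the score, encodes a phosphodiesterase that degrades both cAMP and cGMP. The promoters of Cgnl1, Etv1 and Pde11a, the genes that name these nuclei, are shown because CG-rich promoters are the kind at which PRC2 acts in mouse cells. Sequences are from RefSeq for build GRCm38.p6, from 250 bases before to 50 bases after the start, read 5' to 3' on the gene's strand with CG in capitals.
Cgnl1: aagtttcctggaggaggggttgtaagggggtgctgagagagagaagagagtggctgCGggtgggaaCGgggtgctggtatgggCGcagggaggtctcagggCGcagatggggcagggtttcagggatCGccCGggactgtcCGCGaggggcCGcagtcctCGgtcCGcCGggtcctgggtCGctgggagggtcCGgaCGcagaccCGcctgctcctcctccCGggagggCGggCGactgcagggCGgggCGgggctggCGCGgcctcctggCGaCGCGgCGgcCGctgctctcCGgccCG
Etv1: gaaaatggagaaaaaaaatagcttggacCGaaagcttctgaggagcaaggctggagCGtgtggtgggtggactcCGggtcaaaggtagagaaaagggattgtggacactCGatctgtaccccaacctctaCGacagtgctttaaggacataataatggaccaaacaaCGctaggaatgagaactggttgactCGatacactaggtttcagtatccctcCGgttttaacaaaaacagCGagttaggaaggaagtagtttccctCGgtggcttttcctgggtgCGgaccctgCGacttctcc
Pde11a: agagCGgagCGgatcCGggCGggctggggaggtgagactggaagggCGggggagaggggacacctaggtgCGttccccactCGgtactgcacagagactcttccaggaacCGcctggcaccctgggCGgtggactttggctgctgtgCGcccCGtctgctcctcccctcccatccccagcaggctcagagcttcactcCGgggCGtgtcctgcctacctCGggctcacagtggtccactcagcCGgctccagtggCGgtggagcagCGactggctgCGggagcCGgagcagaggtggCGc

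The Cgnl1 window (chr9:71771553-71771852, minus strand) holds 30 CG, as many as or more than 89.4% of the windows in the promoter table. The Pde11a window (chr2:76338889-76339188, minus strand) holds 20, as many as or more than 75.2% of the windows. The Etv1 window (chr12:38779832-38780131, plus strand), the richer in CG of the 2 listed for the gene, holds 12, as many as or more than 62.1%. The median over 32851 windows was 7 CG. The letters CCGGAAGT, bound by many ETS factors, were searched on both strands and are in none of the 3 windows and in 3.89% of all windows. Of the 15 genes highest in members over other gated nuclei, 10 had an entry, with a median of 14.5 CG taking the window with most CG of each gene, against 8 over all 27025 genes of the table counted the same way.

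Members made up 4.13% (3.42 to 4.94) of the 2785 gated nuclei of the mutant library and 6.91% (5.57 to 8.45) of the 1260 of the wt library. The share was lower in this mutant library than in this wt library, by more than counting error but with no replicate of either. The top 2.5% of nuclei, which are all members, gave 1.69% in the mutant and 4.29% in the wt library. They are part of the same ranking and so no separate check of this order. The depth of the members differed in the same direction: their median was 13968 UMIs in the mutant and 24668 UMIs in the wt library, against 19861.5 and 25211 UMIs in the other gated nuclei of the mutant and wt libraries. With every nucleus thinned to 5000 UMIs before scoring, the shares were 4.003% in the mutant and 7.10% in the wt library. Only 122 of the 202 members stayed in the top 5% under that thinning, so membership of single nuclei is uncertain.

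The threshold fell in a continuous part of the range. The last nuclei inside it scored 1.166, 1.166 and 1.162, and the first outside scored 1.154, 1.144 and 1.142. The lowest-ranked member, of the mutant library, had 1 UMI of Cgnl1, 1 of Etv1 and 3 of Atp8b1, and the next nucleus, also mutant, had 1 UMI of Atp8b1 and 1 of 1700011I03Rik. All 5 genes were detected in 17 mutant and 23 wt members, and only 2 of them in 10 mutant and 4 wt members. Among other gated nuclei, 6 in the mutant and 4 in the wt library had all 5 genes. No gap in the score set the members apart from the nuclei below them.

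The levels of the 5 genes, which the rule used, are given as a description only. Cgnl1 was at 105 CPM in mutant members and 6.51 CPM in other mutant gated nuclei, and at 112 CPM in wt members and 7.80 CPM in other wt gated nuclei. Etv1 was at 116 and 11.1 CPM in mutant members and others, and at 168 and 16.6 CPM in wt members and others. Shisa6 was at 745 and 143 CPM in mutant members and others, and at 689 and 146 CPM in wt members and others. These 3 genes were thus 4.73 to 16.1 times as high in members. Atp8b1 was at 123 and 21.6 CPM in mutant members and others, and at 85.4 and 18.9 CPM in wt members and others. For 1700011I03Rik the levels were 72.5 and 2.27 CPM in mutant members and others, and 109 and 4.14 CPM in wt members and others, the widest ratio of the 5. In mutant members, 20.1% of its UMIs came from 1 nucleus.

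Single nuclei varied widely. Shisa6 ran between 0 and 33.4 UMIs per 10000 over mutant members, with a median of 6.58, and between 0 and 28.1 over wt members, with a median of 7.29. Etv1 had a median of 0.892 per 10000 in mutant and 1.32 in wt members. The median of 1700011I03Rik was 0 in mutant and 0.638 per 10000 in wt members, so most mutant members were chosen without it. Other gated nuclei reached as high for Etv1 and Atp8b1, but not for Shisa6, Cgnl1 and 1700011I03Rik. The highest Etv1 value outside the members was 7.88 per 10000 in the mutant and 8.31 in the wt library. For Shisa6 it was 19.6 per 10000 in the mutant and 14.8 in the wt library.

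Some of these genes are also found in glia of the sort, taken here as nuclei with at least 50 UMIs per 10000 of oligodendrocyte markers. These glial nuclei numbered 58 in the mutant and 47 in the wt library, and 12 and 7 of them were left out of the thinned shares. With the nuclei kept thinned to 2000 UMIs, an Etv1 tag was present in 25.2% of mutant and 37.9% of wt members. The members' median depths before thinning were 13968 UMIs in the mutant and 24668 UMIs in the wt library. In the glial nuclei the tag was present in 10 of 46 mutant nuclei (21.7%) and 8 of 40 wt nuclei. The glial median depths were 3208 UMIs in the mutant and 3559 UMIs in the wt library. In the other gated nuclei an Etv1 tag was present in 1.99% of the mutant and 2.64% of the wt ones. The mutant members' share thus lay within the interval of the mutant glial nuclei, 10.9 to 36.4%, and both lay above the other gated nuclei. In the wt library the members' share lay above the glial interval, 9.05 to 35.65%, and the members' own interval, 27.7 to 49.0%, overlapped it. Without thinning the shares were 72.2% in mutant and 94.3% in wt members. They were 24.1% of all 58 mutant and 25.5% of all 47 wt glial nuclei. Atp8b1 tags were at 20.9% in mutant and 14.9% in wt members, and at 26.1% and 32.5% in those mutant and wt glial nuclei. Among the other gated nuclei Atp8b1 tags were at 4.53% in the mutant and 4.43% in the wt library, below both members and glia. The part of glial RNA in the members' Atp8b1 was not tested. Shisa6, Cgnl1 and 1700011I03Rik were rare in the glial nuclei, with a tag in 0 or 1 nucleus of each library. Shisa6 had a tag in 66.1% of mutant and 71.3% of wt members and in 1 of 46 mutant and 0 of 40 wt glial nuclei; the count of 0 allows up to 7.5%. Oligodendrocyte markers summed to 127 CPM in mutant members and 196 CPM in other mutant gated nuclei, and to 253 CPM in wt members and 226 CPM in other wt gated nuclei.

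Astrocyte markers summed to 173 and 299 CPM in mutant members and others, and to 258 and 232 CPM in wt members and others. In the wt library 4 of the 6 were past 1.5-fold higher in members than in others (median log2 ratio 0.65), and in the mutant library 0 were higher and 1 lower. The share of all genes past 1.5-fold was not counted within either library alone, so these counts cannot be read against it. Endothelial and pericyte markers were higher in members, at 38.9 and 10.5 CPM in mutant members and others and at 29.9 and 8.15 CPM in wt members and others. In each library 1 member stood far out, at 37.0 per 10000 in the mutant and 83.1 per 10000 in the wt library. Without nuclei over 5 per 10000 of these markers, an alternative chosen after seeing the data, the shares of members were 4.17% in the mutant and 6.84% in the wt library. Microglia markers were at 42.3 and 42.4 CPM in mutant members and others, and at 51.2 and 52.0 CPM in wt members and others. Serotonergic and noradrenergic markers had 5 UMIs in mutant and 2 UMIs in wt members, and Slc6a2, the noradrenaline transporter, was at 0. Cholinergic markers had 2 UMIs in mutant and 0 in wt members. The libraries shared 4 cell barcodes, none of them of a member. Nuclei with Xist and no Y-linked tag made up 66.1% of mutant and 55.2% of wt members, against 68.4% and 55.7% in the other gated nuclei of the mutant and wt libraries. Y-linked genes summed to 80.7 CPM in mutant members and 40.1 CPM in other mutant gated nuclei, and to 49.3 CPM in wt members and 61.8 CPM in other wt gated nuclei.

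The gate genes, whose sum the rule used, were in members at levels near those of the other gated nuclei of the same library. No single one was required: a Th tag was present in 75 of 115 mutant and 73 of 87 wt members. Th, the rate-limiting enzyme of dopamine synthesis, was at 70.0 and 74.8 CPM in mutant members and others, and at 139 and 181 CPM in wt members and others. Slc6a3, the dopamine transporter, was at 164 and 192 CPM in mutant members and others, and at 460.4 and 493 CPM in wt members and others. Slc18a2, the vesicular monoamine transporter, and Ddc, which makes dopamine from L-DOPA, also differed by under 1.5-fold between members and others in each library. Nr4a2, a nuclear receptor that dopamine neurons depend on, was at 103 CPM in mutant and 112 CPM in wt members, against 92.0 and 115 CPM in other mutant and wt gated nuclei.

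Pde11a, Spon1 and Ptprk led the genes outside the score that were higher in members in both libraries, and Sox6 and Col25a1 were among the lowest. Because members were picked from the same nuclei, this too is a description. Of 13787 genes with at least 50 UMIs over the compared nuclei in each library, 48 (0.348%) were past 2-fold higher in members in both libraries, taking the ratio with 5 CPM added to both levels. By the same rule 43 (0.312%) were lower. The mutant library alone had 65 higher and the wt library alone 90 higher, so the 48 shared genes are 73.8% of the mutant and 53.3% of the wt list. The lower lists held 90 genes in the mutant and 67 in the wt library, and the 43 shared are 47.8% and 64.2% of the mutant and wt lists. The counts depend on how members are drawn: with the score on thinned counts they were 26 higher and 20 lower, and with the top 10% they were 29 and 12. Without the vascular-marker nuclei they were 44 and 42. Of the 48, 5 are the genes of the score.

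Pde11a was at 287 CPM in mutant members and 66.2 CPM in other mutant gated nuclei, 4.34-fold higher (3.98 to 4.73). In the wt library it was at 243 CPM in members and 52.6 CPM in others, 4.63-fold higher (4.22 to 5.07). A Pde11a tag was found, after thinning, in 27.0% of mutant and 32.2% of wt members, in 9.78% and 9.12% of the other mutant and wt gated nuclei, and in 3 of 46 mutant and 0 of 40 wt oligodendrocyte-marker nuclei. Pde11a was thus present in a part of the members, and in some nuclei outside them at up to 20.9 per 10000. The gene lies on the minus strand of chromosome 2 (mm10, 75989141 to 76338774).

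Spon1, a secreted extracellular matrix protein of the floor plate, was at 257 CPM in mutant members and 53.1 CPM in other mutant gated nuclei. It was at 260 CPM in wt members and 45.3 CPM in other wt gated nuclei, 5.73-fold higher (5.23 to 6.28). Ptprk, a receptor-type tyrosine phosphatase, was at 498 and 112 CPM in mutant members and others, and at 482 and 88.9 CPM in wt members and others. A Ptprk tag was present after thinning in 45.2% of mutant and 51.7% of wt members, and in 42 of 46 mutant and 32 of 40 wt oligodendrocyte-marker nuclei, so the members' share is below that in glia. Among the other gated nuclei it was present in 13.5% of the mutant and 11.6% of the wt ones. Leaving out gated nuclei over 10 per 10000 of glial and vascular markers gave log2 ratios of 2.26 in the mutant and 2.63 in the wt library, against 2.11 and 2.38 with them.

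The other leading genes have varied roles. Kank1, which regulates the actin cytoskeleton at adhesions, was at 70.5 and 15.4 CPM in mutant members and others and at 74.1 and 16.3 CPM in wt members and others. Slc24a4, a potassium-dependent sodium-calcium exchanger, was at 54.9 and 13.3 CPM in mutant members and others and at 60.5 and 6.87 CPM in wt members and others. Cald1, the actin- and calmodulin-binding caldesmon, was at 146 and 37.2 CPM in mutant members and others and at 140.1 and 40.0 CPM in wt members and others. These 3 genes were thus 3.5 to 8.81 times as high in members. Egfr, the receptor of epidermal growth factor, Megf11, a transmembrane protein with EGF-like repeats, and Nckap5 had log2 ratios of 1.54 to 1.98. In Megf11, 17.9% of the UMIs of mutant and 30.4% of those of wt members came from 1 nucleus. Ranbp3l was at 28.7 and 3.599 CPM in mutant members and others and at 71.4 and 5.999 CPM in wt members and others, with 26.1% of the wt members' UMIs in 1 nucleus.

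The genes lowest in members included regulators and synaptic genes. Sox6, a transcription factor of ventral nigral dopamine neurons, was at 67.1 and 454 CPM in mutant members and others, a log2 ratio of -2.67. In the wt library it was at 121 CPM in members and 454 CPM in others, a log2 ratio of -1.86. Gsg1l, an auxiliary protein of AMPA receptors, was at 27.2 and 155 CPM in mutant members and others and at 21.0 and 127 CPM in wt members and others. The vesicle proteins Sv2c and Sv2b were low as well: Sv2c was at 41.8 and 246 CPM in mutant members and others and at 169 and 578 CPM in wt members and others. Sv2b was at 30.6 and 151 CPM in mutant members and others and at 39.2 and 117 CPM in wt members and others. Col25a1, a transmembrane collagen, was at 153 and 880 CPM in mutant members and others and at 262 and 1125 CPM in wt members and others. Pex5l, Zfp804b, Hs6st3, Satb1 and Stac complete the 10 lowest, with log2 ratios between -2.42 and -1.40. For Hs6st3, a heparan sulfate sulfotransferase, 19.2% of the mutant and 33.5% of the wt members' UMIs came from 1 nucleus.

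**Figure D1:**
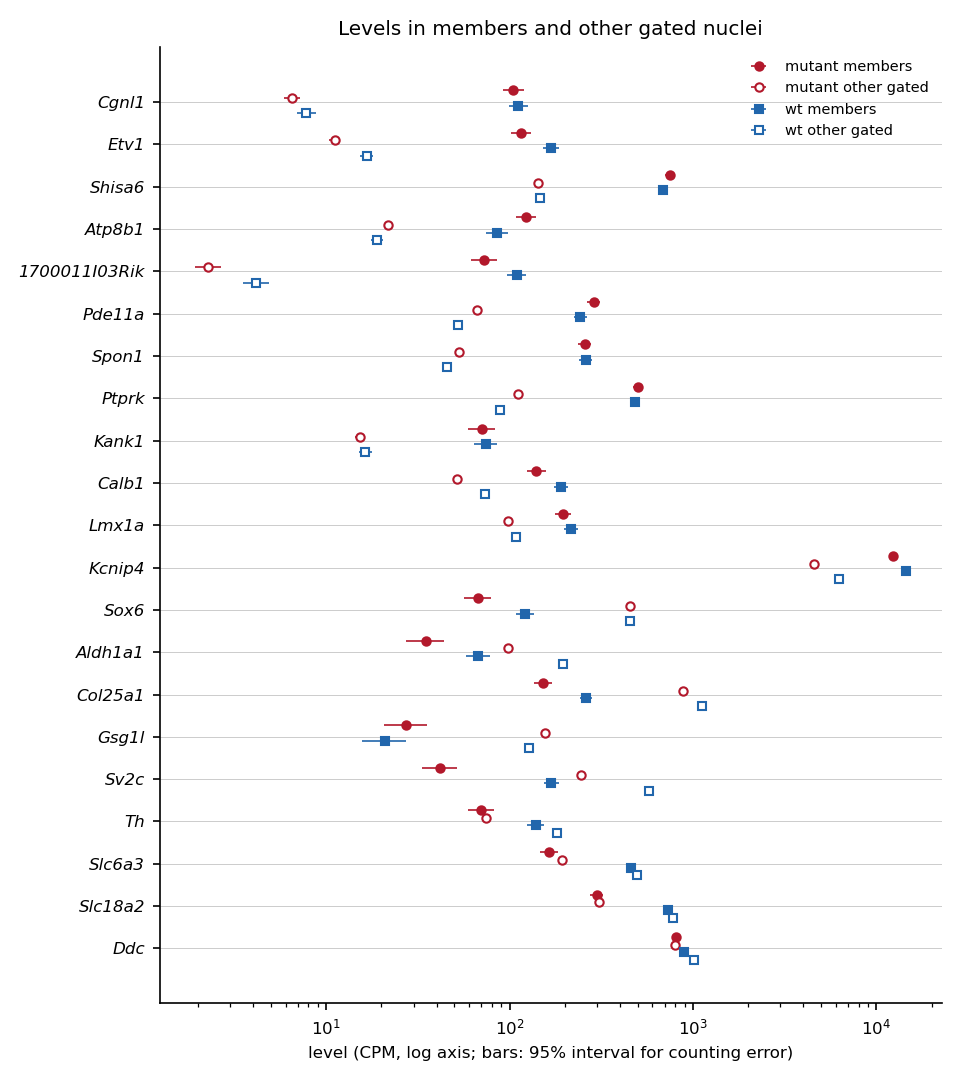
Levels in CPM (log axis) of the 5 genes of the score, Pde11a, genes that were higher or lower in members, and the 4 gate genes; filled symbols are members and open symbols other gated nuclei, red circles the mutant and blue squares the wt library, and bars 95% intervals for counting error. Pde11a was at 287 and 66.2 CPM in mutant members and others, Sox6 at 67.1 and 454 CPM, and the gate genes lie close together within each library.

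Along the ranking, most of the genes followed changed gradually and not at the threshold. Sox6 was at 4.72 CPM in the top 1% and 513 CPM in the lowest 75% of the ranking in the mutant library, and at 31.6 and 518 CPM in the wt library. In the band just below the members, from 5 to 10%, it was at 183 CPM in the mutant and 249 CPM in the wt library. Sox6 was thus lowest in the nuclei with the highest scores and already low beside the members. Spon1 ran the other way, at 410.5 and 42.4 CPM in the mutant top 1% and lowest 75%, and at 448 and 36.2 CPM in the wt ones. Pde11a did not peak at the top in either library: it was at 259 CPM in the mutant and 223 CPM in the wt top 1%, and its highest band was 2.5 to 5% in the mutant, at 307 CPM, and 1 to 2.5% in the wt library, at 357 CPM. Aldh1a1 did not change steadily. In the top 1%, 1 to 2.5% and 2.5 to 5% bands it was at 0, 73.25 and 21.94 CPM in the mutant library. In the wt library it was at 64.96, 16.45 and 102 CPM in these bands. The top 1% held 13 mutant and 27 wt nuclei, and the genes followed along the ranking were chosen after their values were seen.

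**Figure D2:**
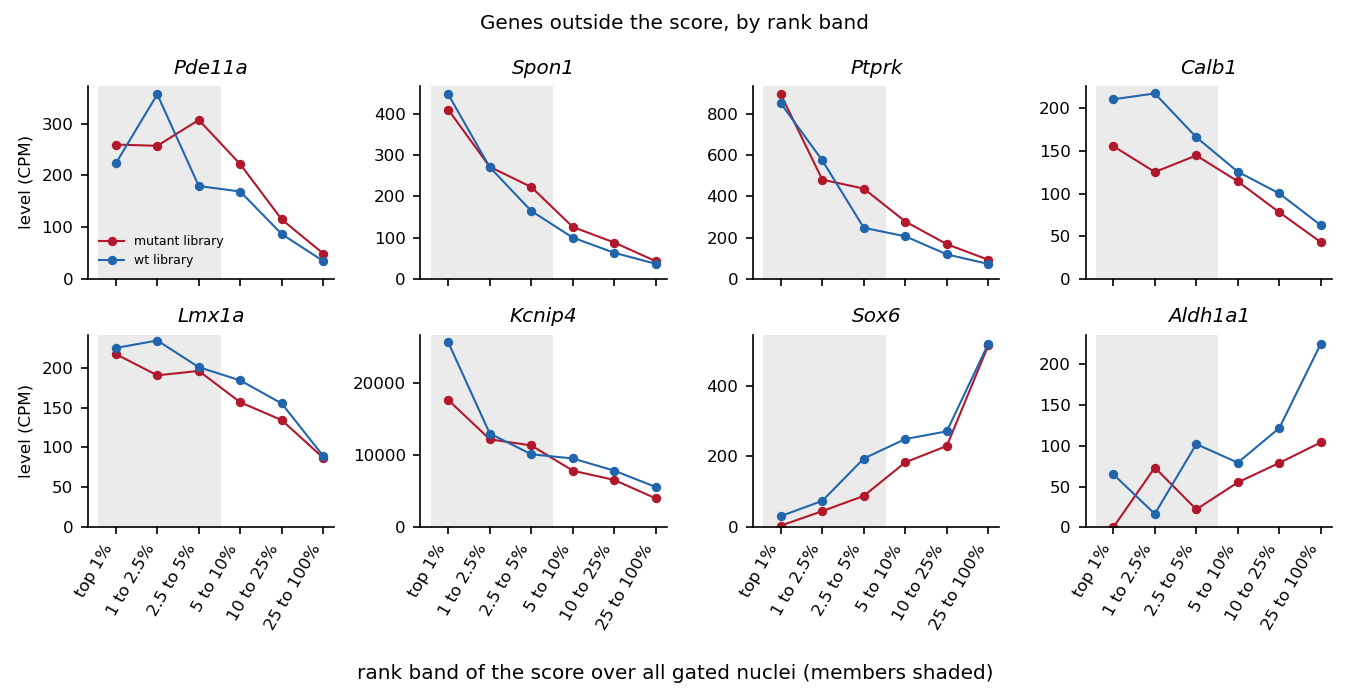
Levels in CPM of 8 genes outside the score by rank band of the score over all gated nuclei, with the mutant library in red, the wt library in blue and the members' bands shaded. Spon1, Ptprk, Calb1, Lmx1a and Kcnip4 are lowest in the 25 to 100% band in both libraries, and Sox6 is highest there. Aldh1a1 is highest there too but does not change steadily.

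Genes of the substantia nigra type were low in the members as a list. Of 11 measured in both libraries, 0 were past 1.5-fold higher in members in both and 7 past 1.5-fold lower, where over all genes 0.972% were higher and 1.17% lower. The list's median log2 ratio was -0.89 in the mutant and -1.06 in the wt library, against medians of -0.01 and 0.00 over all genes measured. The 7 were Sox6, Aldh1a1, Ndnf, Lmo3, Grin2c, Igf1 and Serpine2. Aldh1a1, which oxidises aldehydes and marks ventral nigral neurons, was at 35.0 and 98.0 CPM in mutant members and others and at 67.5 and 196 CPM in wt members and others. In mutant members 59.7% of its UMIs came from 1 nucleus. Igf1, a growth factor, was at 17.0 and 48.7 CPM in mutant members and others and at 32.6 and 101 CPM in wt members and others.

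Of 15 genes of the ventral tegmental type, Calb1 was higher and Tacr3 lower by the same rule, against 0.972% higher and 1.17% lower over all genes. Calb1, the calcium buffer calbindin, was at 140.0 and 51.4 CPM in mutant members and others, 2.72-fold higher (2.41 to 3.07), and at 192 and 73.8 CPM in wt members and others, 2.60-fold higher (2.36 to 2.86). Tacr3, the neurokinin 3 receptor, was at 17.0 and 49.1 CPM in mutant members and others and at 27.2 and 106 CPM in wt members and others. The list's median log2 ratio was -0.44 in the mutant and -0.23 in the wt library, so the members were not high in this list as a whole. Among 16 regulators of midbrain dopamine neurons, Lmx1a, a homeodomain factor of the floor plate and dopamine lineage, was higher and Sox6 lower. Lmx1a was at 196 and 97.4 CPM in mutant members and others and at 216 and 108 CPM in wt members and others.

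The families of Pde11a and of the genes of the score were examined next, against 0.972% higher and 1.17% lower over all genes by the same rule. Of 39 other genes of cyclic nucleotide signalling, the cAMP phosphodiesterase Pde7b was higher and the calmodulin-dependent phosphodiesterase Pde1c lower. Pde7b was at 133 and 70.2 CPM in mutant members and others and at 93.9 and 43.0 CPM in wt members and others. Of 16 AMPA receptor subunits and auxiliary proteins other than Shisa6, Gsg1l was lower and none was higher. None of 13 other flippases, 12 other ETS factors and 18 other junction scaffold genes was past 1.5-fold in both libraries in either direction, which is near the share over all genes. The medians of these 5 lists lay between -0.16 and 0.09 on the log2 scale in either library.

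Several genes of excitability, transmission and guidance were past 1.5-fold in both libraries. Over all genes, 0.972% were higher and 1.17% lower by that rule. Kcnip4, which binds Kv4 potassium channels, was at 12264 and 4577 CPM in mutant members and others and at 14449.9 and 6271 CPM in wt members and others. Of 30 channel genes, Cacna2d3 was the other one higher, and Cacna2d1, another calcium channel subunit, was among those lower. Cacna2d1 was at 236 and 539 CPM in mutant members and others and at 352 and 634 CPM in wt members and others. Of 28 receptors, Chrna7, a nicotinic subunit, and Oprm1, the mu opioid receptor, were higher, and Chrna3, Chrna5, Tacr3 and Grm7 lower. Chrna7 was at 109 and 55.6 CPM in mutant members and others and at 163 and 78.6 CPM in wt members and others, while Chrna3 and Chrna5 rest on 1 to 5 UMIs in members of a library. Of 38 guidance and adhesion genes, Sema3d, Slit3, Epha3 and Epha6 were higher and Nrp2, Epha4, Epha5, Cdh8 and Cdh11 lower. Slit3, a ligand of Robo receptors, was at 200.3 and 98.5 CPM in mutant members and others and at 185 and 54.2 CPM in wt members and others. Gad2, which makes GABA, was at 126 and 71.4 CPM in mutant members and others and at 60.2 and 26.2 CPM in wt members and others. Of 4 genes of GABA and glycine transmission measured, Gad2 was the one higher.

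The top 5% of gated nuclei were also taken by scores for other subsets, each giving 202 nuclei, and the shares below are read against the 5% of all gated nuclei that each set holds. The overlap was 21 nuclei (10.4% of either set) with the Ebf2, Adam12 and Htr2c score and 14 (6.93%) with the Sema5b and Sulf1 score. With the other 5 scores it was 3 to 5 nuclei, below 5%, including 4 with the ventral nigral score. The sets were all drawn from the same gated nuclei.

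The mutant members carried more transcripts of embryonic regulators than wt members, and less of the dopamine transport genes. Hox genes were at 0 UMIs in wt members, and the other embryonic regulators summed to 80.7 CPM there. Of 8495 genes with at least 50 UMIs over the members of both libraries, 65 (0.765%) were past 2-fold higher and 86 (1.01%) past 2-fold lower in mutant than wt members. The median over these genes was a log2 ratio of 0.05. In the other gated nuclei, which are more numerous and so have more genes measured, 159 of 16181 (0.983%) were higher and 50 (0.309%) lower. Of the members' 65 higher genes, 42 were also 2-fold higher there, and of the 86 lower ones 25 were. The members' counts depend on the setting. With each gene's top nucleus left out of the library where the gene was higher, 48 were higher and 50 lower. This alternative was chosen after seeing the data. It takes UMIs from the higher side only, so a fall in the counts was built in. With the top 5% taken within each library the counts were 104 and 53, and with genes of at least 20 UMIs they were 141 and 122. Pde11a, at 287 CPM in mutant and 243 CPM in wt members, had a fold of 1.18 (1.05 to 1.32). The 5 genes of the score, by which the members were chosen, summed to 1162 CPM in mutant and 1164 CPM in wt members.

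Eed, the gene named in the strain, was at 33.1 CPM in mutant and 23.7 CPM in wt members, a fold of 1.40 (0.974 to 2.01). Which part of the gene is removed is not stated in the labels, so these 3' tags do not check the genotype label. None of 10 PRC2 subunit genes measured was past 1.5-fold in either direction, where 3.26% of all genes were higher and 3.7% lower by that rule; Ezh2, the methyltransferase, was at 28.7 CPM in mutant and 19.8 CPM in wt members.

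Regulators summed over 111 genes of the Hox and other embryonic lists were at 1270 CPM in mutant and 80.7 CPM in wt members, 15.7-fold higher (13.7 to 18.2). In the other gated nuclei they were at 1689 CPM in the mutant and 62.8 CPM in the wt library, 26.9-fold higher (25.8 to 28.0). Hox genes alone had 637 UMIs (310 CPM) in mutant members and 0 in wt members, which with 3 counts over the wt members as the floor is at least 266-fold higher. All 4 Hox genes measured and 10 of 12 other embryonic regulators measured were past 1.5-fold higher and none was lower; most of the 31 and 80 in the table did not reach 50 UMIs in members. Mostly genes with enough UMIs in mutant members could be measured in lists that are at 0 or low in wt members. These counts are therefore no measure of the whole lists. In the median mutant member these regulators made up 10.1 UMIs per 10000, against 0.430 in the median wt member, and the ranges overlapped, at 0 to 46.9 and 0 to 19.2.

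The mutant members had less of the Hox sum than the other mutant nuclei. It was at 310 CPM in mutant members and 534 CPM in other mutant gated nuclei, a ratio of 0.580 (0.536 to 0.627). Of 26 Hox genes measured there, 5 were past 1.5-fold lower in mutant members and 0 higher, with a median log2 ratio of -0.28 against -0.01 over all genes. The share of all genes past 1.5-fold was not counted within the mutant library alone, so the 5 cannot be read against it. A Hox tag was found in 67.0% of mutant members and 81.6% of other mutant gated nuclei, and after thinning to 2000 UMIs in 33.9% (25.4 to 43.3) and 49.4% (47.5 to 51.4). Of 87 thinned wt members 0 had one, which allows a tag at this depth in up to 3.45% of them by the limit of 3 counts (exact upper bound 4.15%), and sets no limit on nuclei with the transcript. Hoxc4 was at 57.4 CPM in mutant members and 120.1 CPM in other mutant gated nuclei, 2.09-fold lower in members (1.75 to 2.53), and Hoxc5 was 2.78-fold lower (2.23 to 3.52). Pax3, a paired-box factor of the dorsal neural tube, was 1.78-fold lower (1.48 to 2.16), with 17.2% of the mutant members' UMIs in 1 nucleus. Onecut2, a homeodomain factor, was at 198 CPM in mutant members and 171 CPM in other mutant gated nuclei, and so was not lower. All these nuclei come from 1 mutant library, and depth differed between members and others as given above.

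**Figure D3:**
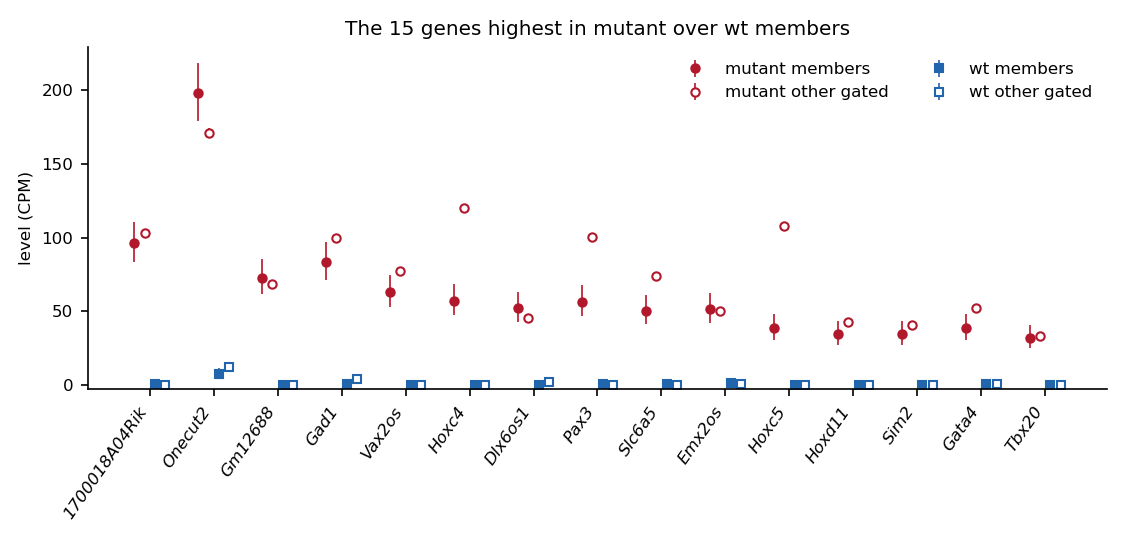
Levels in CPM of the 15 genes with the highest ratio of mutant over wt members, in mutant members (filled red), other mutant gated nuclei (open red), wt members (filled blue) and other wt gated nuclei (open blue); bars are 95% intervals for counting error. Hoxc4, Hoxc5 and Pax3 stand lower in mutant members than in other mutant gated nuclei, Onecut2 does not, and the wt groups are at 0 or near it except for Onecut2, at 7.38 CPM in wt members and 12.2 CPM in other wt gated nuclei.

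The single genes with the highest ratios were regulators, noncoding transcripts and genes of inhibitory transmission. Onecut2 had 408 UMIs (198 CPM) in mutant and 19 UMIs (7.38 CPM) in wt members, 26.9-fold higher (17.0 to 45.1). Gad1, which makes GABA, had 172 UMIs (83.6 CPM) in mutant and 2 UMIs (0.776 CPM) in wt members, a ratio of 108 (29.4 to 897). Its log2 ratio, 3.94 with 5 CPM added, was 2.62 without Etv1 in the score, 2.76 without Shisa6 and 2.95 with the top 10% as members. Slc6a5, the neuronal glycine transporter, had 104 UMIs (50.6 CPM) in mutant and 1 UMI in wt members, a ratio of 130.3 (22.9 to 5194). With Gad2, at 126 CPM in mutant and 60.2 CPM in wt members, 3 of 5 genes of GABA and glycine transmission measured were higher, but Gad1 and Slc6a5 reached the minimum only through the mutant members, so the count is no measure of the list. Hoxc4 had 118 UMIs and Hoxc5 80 UMIs in mutant members and 0 in wt members, which is at least 49.3-fold higher for Hoxc4 and at least 33.4-fold for Hoxc5. Hoxd11, the bHLH-PAS factor Sim2 and the T-box factor Tbx20 had 71, 71 and 66 UMIs in mutant members and 0 in wt members. Pax3 had 116 UMIs in mutant members and 1 in wt members, and the zinc finger factor Gata4 80 and 2. The noncoding transcripts among the 15 were 1700018A04Rik, Gm12688, Vax2os, Dlx6os1 and Emx2os, with 106 to 198 UMIs in mutant members and 0 to 3 in wt members; where such a transcript overlaps a neighbour, the table does not show which strand was counted.

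These 15 genes were high in the other mutant nuclei too, with log2 ratios of mutant over wt between 2.86 and 4.64 there. Gad1 tags were found, after thinning, in 13.9% of mutant members and 0 of 87 wt members (exact upper bound 4.15% for nuclei with a tag at this depth). In other gated nuclei they were in 14.8% of the mutant and 0.426% of the wt nuclei. Oligodendrocyte-marker nuclei had them in 1 of 46 mutant and 1 of 40 wt nuclei. Lef1, a Wnt pathway factor chosen after its values were seen, was at 10.7 CPM in mutant and 14.4 CPM in wt members, where 73.0% of the wt UMIs came from 1 nucleus. In the other gated nuclei it was at 33.7 CPM in the mutant and 2.40 CPM in the wt library. The difference between the ratios was not tested.

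The promoters of Gad1 and Hoxc4, which were higher in mutant members, and of Bmpr1b, the lowest gene, are shown for comparison, with CG in capitals as above.
Gad1: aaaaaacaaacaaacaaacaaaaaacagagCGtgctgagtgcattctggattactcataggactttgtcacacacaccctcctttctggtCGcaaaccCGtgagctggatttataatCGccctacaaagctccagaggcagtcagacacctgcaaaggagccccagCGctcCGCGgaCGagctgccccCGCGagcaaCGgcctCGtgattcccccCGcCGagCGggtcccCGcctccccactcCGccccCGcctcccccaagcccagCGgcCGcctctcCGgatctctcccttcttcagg
Hoxc4: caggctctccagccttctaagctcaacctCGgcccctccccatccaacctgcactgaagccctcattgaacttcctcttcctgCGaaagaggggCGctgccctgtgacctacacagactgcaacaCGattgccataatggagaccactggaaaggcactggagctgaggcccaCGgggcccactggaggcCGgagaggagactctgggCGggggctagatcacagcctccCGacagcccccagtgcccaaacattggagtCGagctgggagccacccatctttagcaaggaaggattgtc
Bmpr1b: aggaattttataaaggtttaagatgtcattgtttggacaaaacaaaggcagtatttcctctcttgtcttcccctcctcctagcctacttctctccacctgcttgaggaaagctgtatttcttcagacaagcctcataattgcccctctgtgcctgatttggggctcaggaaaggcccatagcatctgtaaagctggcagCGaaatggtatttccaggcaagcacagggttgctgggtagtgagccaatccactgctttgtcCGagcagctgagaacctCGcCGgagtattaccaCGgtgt
The Gad1 window (chr2:70561879-70562178, plus strand) holds 21 CG and the Hoxc4 window (chr15:103034145-103034444, plus strand) 9. The Bmpr1b window (chr3:141982215-141982514, minus strand), the richest in CG of 3 listed, holds 5. Of the 15 highest genes 8 had an entry, with a median of 14.5 CG, and of the 10 lowest 8 had one, with a median of 9.5. CCGGAAGT is in none of the 3 windows shown.

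Among genes that were lower, Bmpr1b stood out. Bmpr1b, a type I receptor for bone morphogenetic proteins, had 6 UMIs (2.92 CPM) in mutant and 196 UMIs (76.1 CPM) in wt members, 26.1-fold lower in mutant members (11.8 to 71.9). In the other gated nuclei it was at 37.0 CPM in the mutant and 90.9 CPM in the wt library. The log2 ratio was thus -3.36 in members and -1.19 in other gated nuclei; the difference was not tested, and with the top 10% as members the members' ratio was -1.97. After thinning to 2000 UMIs, a Bmpr1b tag was found in 0.870% (0.0220 to 4.75) of mutant and 5.75% (1.89 to 12.9) of wt members, and these intervals overlap. In other gated nuclei it was in 5.51% of the mutant and 13.3% of the wt ones, and in oligodendrocyte-marker nuclei in 1 of 46 mutant and 1 of 40 wt ones. Before thinning it was in 5 of 115 mutant members (median depth 13968 UMIs) and 38 of 87 wt members (24668 UMIs).

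The other lowest genes were mostly lower throughout the mutant nuclei. Dnah7a, an axonemal dynein heavy chain, was at 13.6 CPM in mutant and 111 CPM in wt members, with log2 ratios of -2.64 in members and -1.77 in other gated nuclei. Spag16, of the ciliary axoneme, was at 2.43 CPM in mutant and 40.4 CPM in wt members, where 33.7% of the UMIs came from 1 nucleus. Slc39a12, a zinc transporter, was at 4.86 CPM in mutant and 42.7 CPM in wt members. Slc4a4, a sodium bicarbonate cotransporter of astrocytes, was at 19.0 CPM in mutant and 109 CPM in wt members, a log2 ratio of -2.25. In other gated nuclei its log2 ratio was -0.20, at 31.6 CPM in the mutant and 37.2 CPM in the wt library, and 33.2% of the wt members' UMIs came from 1 nucleus. Without gated nuclei over 10 per 10000 of glial and vascular markers its ratio in members was -1.05. Astrocyte markers summed to 173 CPM in mutant and 258 CPM in wt members, a fold of 0.670 (0.587 to 0.763), and their part in the Slc39a12 ratio was not tested. Cubn, an endocytic receptor, was at 7.29 CPM in mutant and 50.9 CPM in wt members. The 10 also held Sv2c, at 41.8 CPM in mutant and 169 CPM in wt members, and 3300002A11Rik, Gm44593 and Gm8206, for which no role is given.

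**Figure D4:**
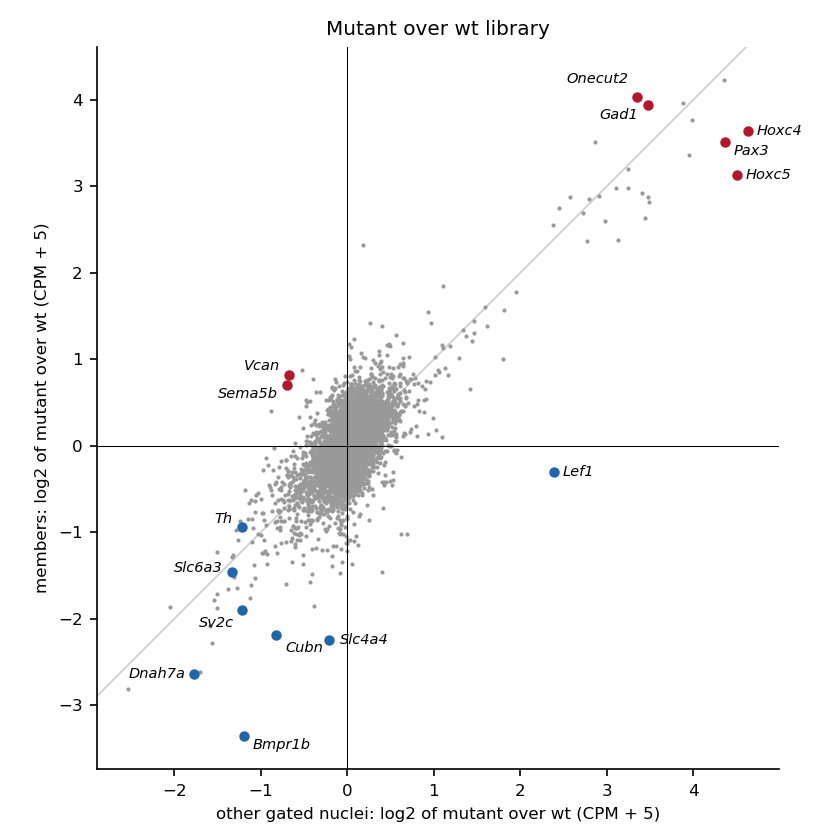
Log2 ratio of mutant over wt (with 5 CPM added) for genes measured in both sets, in members (vertical axis) against other gated nuclei (horizontal axis); the grey line marks equal ratios, and coloured genes are named in the text. Onecut2, Gad1 and the Hox genes are high on both axes, Bmpr1b lies below the line at -3.36 and -1.19, and Lef1, Vcan and Sema5b have opposite signs on the axes.

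Dopamine genes were lower in mutant members. Of 13 genes of dopamine synthesis, storage and breakdown, 7 were past 1.5-fold lower and 0 past 1.5-fold higher, where 3.7% of all genes were lower. Of the 7, 3 are gate genes (Th, Slc6a3 and Slc18a2), whose sum chose the nuclei, so the count is a description. The list had a median log2 ratio of -0.64 against 0.05 over all genes. Slc6a3 was at 164 CPM in mutant and 460.4 CPM in wt members, 2.80-fold lower (2.48 to 3.17). Slc18a2 was at 299 CPM in mutant and 734 CPM in wt members, 2.46-fold lower (2.24 to 2.69). Th was at 70.0 CPM in mutant and 139 CPM in wt members, 1.99-fold lower (1.63 to 2.42), while Ddc, at 812 CPM in mutant and 897 CPM in wt members, was not past 1.5-fold. The gate used these 4 genes, so it sets a minimum on their sum in both libraries. Gch1, which starts synthesis of the cofactor of Th, Slc10a4, a vesicular transporter-like protein, Aldh1a1 and the dopamine receptor Drd2 were the other 4. In other gated nuclei the list's median was -0.44, against 0.02 over all genes.

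Of 13 regulators of dopamine neurons measured, Ebf1, a helix-loop-helix factor, was higher, at 114 CPM in mutant and 71.4 CPM in wt members. En1, a homeodomain factor that maintains these neurons, was lower, at 32.1 CPM in mutant and 62.9 CPM in wt members, and Sox6 was at 67.1 CPM in mutant and 121 CPM in wt members. Nr4a2 was at 103 CPM in mutant and 112 CPM in wt members. Of 9 genes of the nigral type, Vcan was higher and Sox6, Aldh1a1, Ndnf and Igf1 lower. Of 7 genes of the tegmental type, the factor Nfib was higher, at 93.4 CPM in mutant and 59.0 CPM in wt members, and none was lower. Over all genes, 3.26% were higher and 3.7% lower by the 1.5-fold rule used for these lists.

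The remaining lists are read against the 3.26% higher and 3.7% lower over all genes by the 1.5-fold rule. Of 33 genes of cyclic nucleotide signalling, Pde1c was higher, at 58.8 CPM in mutant and 24.1 CPM in wt members, and Prkg2, a cGMP-dependent kinase, lower, at 17.0 CPM in mutant and 31.0 CPM in wt members. Of 22 receptors, 0 were higher and 4 lower, namely Drd2, the neurotensin receptor Ntsr1, Oprm1 and the leptin receptor Lepr. Drd2 was at 139 CPM in mutant and 219 CPM in wt members. Of 27 channel genes, Kcnip1 and Kcnn2 were higher and Kcnn3 lower. Kcnn2, a small-conductance calcium-activated potassium channel, was at 528 CPM in mutant and 320 CPM in wt members, and its relative Kcnn3 was at 194 CPM in mutant and 327 CPM in wt members. Of 34 guidance and adhesion genes, Sema5b was higher and Unc5c, Epha4, Epha7, Cdh8, Cdh9 and Cdh12 were lower. Epha4, an ephrin receptor, was at 39.4 CPM in mutant and 94.3 CPM in wt members. Of 10 other flippases Atp10a was higher, of 15 junction scaffold genes Ctnna1 was lower, and of 13 AMPA receptor genes and 7 other ETS factors none was past 1.5-fold. Oligodendrocyte markers were among the genes lower in mutant members: Mbp was at 34.5 CPM in mutant and 69.9 CPM in wt members, and St18 was at 29.7 CPM in mutant and 74.9 CPM in wt members. The sum of that list was at 127 CPM in mutant and 253 CPM in wt members, and the part of glial RNA in the genes lower in mutant members was not tested beyond the counts without glial-marker nuclei, which were 70 higher and 63 lower.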

How the data were processed

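Per the labels' protocols, midbrain nuclei were sorted by FACS before library preparation with the 10x 3' v3 kit. What the authors deposited is a table of UMI counts per gene and nucleus, not normalised, with 23481 genes and 5740 nuclei (3968 mutant, 1772 wt). Lanes are pooled in it, and filters applied before deposit are not given in the sources used here. Cell Ranger 3.1.0 and mm10 appear in the submitters' processing notes without a role. Median depth was 17860 UMIs in the mutant and 21532.5 UMIs in the wt library. Columns starting with KO were taken as the PRC2 mutant and those with WT as wt.

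Group sums of counts, divided by the group's total, gave CPM. Log2 ratios have a pseudocount of 5 CPM and need 50 UMIs over the compared nuclei. Genes were counted at 2-fold and list members at 1.5-fold. Folds of single genes have no pseudocount, with exact binomial intervals, and shares have exact binomial (Clopper-Pearson) intervals. With 0 counts, 3 counts were the floor. Thinning was without replacement to 2000 UMIs. No doublet caller was run. The steps were tested on counts simulated for mutant over wt members with counting error only. Of genes raised 2-fold 14% met the 2-fold rule, and of genes lowered 2-fold 36.36%. Of genes raised 4-fold 100% met it, and of genes lowered 4-fold 97.78%. Gene positions are from GENCODE M21 by symbol (98.2% matched 1 gene). Python 3.11.15, numpy 2.4.6, scipy 1.17.1, pandas 2.3.3 and matplotlib 3.10.9 were used.

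The rule named the 5 score genes, Pde11a, the 4 gate genes, the 15 highest and 10 lowest genes over other gated nuclei and of mutant over wt members, and up to 4 genes of each list; genes named beyond that were chosen after their values were seen. Members and lists were chosen with earlier results of these data known. Alternatives changed the depth minimum, the gate, the score and its threshold, the nuclei kept, the pseudocount, the gene minimum and the weight of nuclei. Some genes of the lists are not reported here.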

Additional observations from a re-analysis of the deposited data

Results flagged for a closer look

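Vcan, the matrix proteoglycan versican, went opposite ways in members and in other gated nuclei. Its log2 ratio of mutant over wt was 0.82 in members, at 47.6 CPM in mutant and 24.8 CPM in wt members, and -0.68 in other gated nuclei, at 28.4 CPM in the mutant and 48.3 CPM in the wt library. In mutant members 21.4% of its UMIs came from 1 nucleus, and the ratio was 0.07 with the score on thinned counts and 0.15 with the top 10% as members. The difference between members and others was not tested.

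Sema5b, a membrane-bound semaphorin, did the same. Its log2 ratio was 0.70 in members, at 112 CPM in mutant and 66.8 CPM in wt members, and -0.70 in other gated nuclei, at 49.0 CPM in the mutant and 82.5 CPM in the wt library. Within the mutant library it was 2.28-fold higher (1.99 to 2.61) in members than in other gated nuclei, and within the wt library the ratio was 0.809 (0.690 to 0.943). The members' sign turned under 2 of the alternatives, and the difference was not tested.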

How the results depend on the processing

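Of 680 single-gene values recomputed under 19 alternatives, 610 stayed within the spread allowed, 68 moved and 2 reversed, both for Sema5b in mutant over wt members, at -0.11 with the top 2.5% and -0.25 with the score on counts thinned to 5000 UMIs. Shares of members in the mutant and wt libraries were 1.69% and 4.29% at the top 2.5%, 8.76% and 12.7% at the top 10%, and 4.99% and 5%, as the rule then fixes, with the top 5% taken within each library. Genes 2-fold higher in members than in others numbered 29 at the top 10%, 26 with thinned scores and 85 with a pseudocount of 1 CPM. Genes lower numbered 106 at the top 2.5%, 12 at the top 10%, 20 with thinned scores, 92 with a pseudocount of 1 CPM and 65 with nuclei weighted equally. Mutant over wt, 101 were higher at the top 10%, 104 with the top 5% within each library and 141 with genes of at least 20 UMIs. At the top 10% 51 were lower, and 53 within each library. With each gene's top nucleus left out of the library where it was higher, which builds in a fall, 50 were lower. That setting was chosen after seeing the data, as was leaving out vascular-marker nuclei. The regulator fold was 19.6 with the top 5% within each library, 20.7 in nuclei with Xist and no Y-linked tag and 11.5 with nuclei weighted equally. The cause of these shifts was not tested. Leaving out 1 gene of the score at a time gave shares of 3.95% to 4.49% in the mutant and 6.11% to 7.30% in the wt library, 42 to 50 and 30 to 56 genes higher and lower in members, 59 to 68 and 63 to 87 higher and lower in mutant members, and folds of 15.1 to 17.8. Of the 65 and 86 genes higher and lower in mutant members, 41 and 38 were called again with thinned scores. No paired analysis was possible because each genotype is 1 library whose lanes are pooled in the table. Depth limits genes under about 50 UMIs, where 1 UMI is 0.486 CPM in mutant and 0.388 CPM in wt members.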

Other observations

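Cdkn2a, which encodes inhibitors of the cell cycle, had 48 UMIs in 26 of 115 mutant members and 0 UMIs in wt members, which with 3 counts as the floor is at least 20.04-fold higher. It was at 23.3 CPM in mutant members and 18.1 CPM in other mutant gated nuclei, and it missed the minimum of 50 UMIs. Nr4a3, an activity-induced nuclear receptor, was at 21.4 CPM in mutant and 8.15 CPM in wt members. Of 14 immediate early genes listed 2 were measured, and Nr4a3 was the one past 1.5-fold. Over all genes 3.26% were higher by that rule, and with 2 measured the count is no measure of the list. Slc17a6, the vesicular glutamate transporter of many midbrain neurons, was at 20.9 CPM in mutant and 19.0 CPM in wt members, and at 32.03 and 25.03 CPM in the other mutant and wt gated nuclei. Of 8 neuropeptide genes measured against other gated nuclei, none was past 1.5-fold in both libraries. By that rule 0.972% of all genes were higher and 1.17% lower. The Y-linked genes Ddx3y and Eif2s3y were past 1.5-fold higher in mutant members, and nuclei with Y-linked tags and no Xist made up 13.0% of mutant and 11.5% of wt members.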
